A study of Mus musculus with 1073 samples.

Results

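Macrophages and haematopoietic progenitors of the E10.5 mouse yolk sac were compared cell by cell, across 15967 genes. The macrophages (Mac) were the 25 cells sorted as TER119− CDH5− CD41− CD45+ that passed the authors' filter, and the progenitors (HPC, called erythro-myeloid progenitors in the sample labels) were the 87 cells sorted as TER119− CDH5− CD45+ CD41low. The filtered table of the series held 926 cells in all. The cells of both groups were chosen by sort label and by passing that filter, and no other expression value entered the choice. The filter kept 25 of 41 captured Mac cells and 87 of 92 captured HPCs. Both groups came from C57BL/6 embryos with no treatment or transgene named, were released with collagenase and dispase, and were captured singly in the microfluidic circuit of the Fluidigm C1, which takes cells of a set range of widths. The yolk sacs were pooled and no cell is tied to an embryo, so each group counts as 1 sample and no test between them was possible: each difference is given by its size, and each interval covers counting error only. Mac libraries were read in lane 5 together with primitive erythroid cells (EryP) and HPC libraries in lane 4 of the same flow cell, so that lane, capture and cell type cannot be told apart.

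The first macrophages of the embryo arise in the yolk sac from progenitors that can also give granulocytes, mast cells, erythroid cells and megakaryocytes. Macrophages depend on signals through the CSF1 receptor, take up dying cells through scavenger receptors, and make the subunits of C1q, the first component of the classical complement cascade. Progenitors are known for the receptor KIT and for transcription factors such as GATA2, MYB and RUNX1. Some cells of the yolk sac leave for other tissues, where they found resident macrophages such as the microglia of the brain.

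Read counts per cell ran from 1001742 to 5943204 in Mac (median 3422342) and from 483830 to 4339557 in HPC (median 1609583). Levels below are CPM, read counts that the authors scaled by a size factor for each cell. These are not counts of molecules and are not divided by gene length, so that levels are compared between groups and not between genes. A part of the Mac libraries stood apart. In 11 of the 25 Mac cells (numbers 3, 9, 10, 14, 20, 21, 29, 32, 37, 39 and 40) the 50 most abundant genes held over 30% of the counts, between 32.4% and 70.0%. In the other 14 Mac cells they held 13.6% to 28.2%. Only 1 of the 87 HPCs passed 30% (66.1%), and the other 86 reached at most 23.6%. The 11 Mac libraries also held fewer genes, 5551 to 7826 against 7155 to 9045 in the other 14, and mitochondrial transcripts made up 0.273% to 45.7% of their counts. They are called low-complexity libraries here, and the ratios of the main gene groups are given with and without them.

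**Figure D1:**
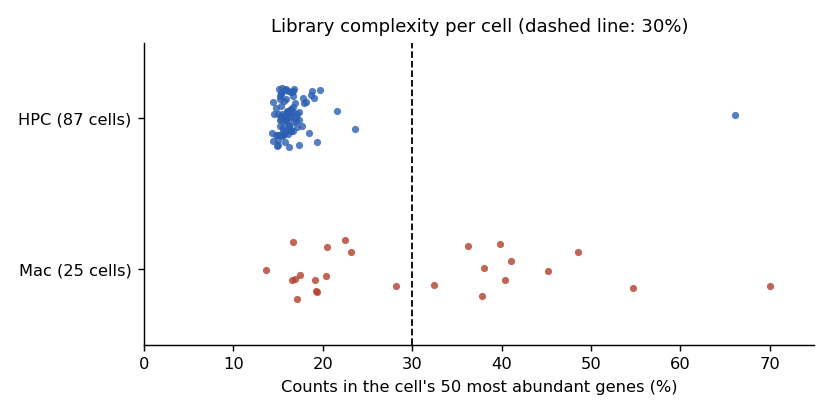
Share of each cell's read counts held by its 50 most abundant genes (x axis, %), with 1 point per cell and the groups on separate rows. To the right of the dashed line at 30% lie 11 of the 25 Mac cells and 1 of the 87 HPCs.

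The 4 genes that mark macrophages followed the sort label. *Csf1r*, the receptor for CSF1, ran from 12.4 to 4938 CPM in Mac with a median of 621 CPM, and from 0 to 1953 CPM in HPC with a median of 1.64 CPM. *Cx3cr1*, the fractalkine receptor, ran from 9.53 to 4087 CPM in Mac (median 672 CPM) and from 0 to 2003 CPM in HPC (median 0.617 CPM). *C1qb*, a C1q subunit, ran from 0.733 to 6438 CPM in Mac (median 960 CPM) and from 0 to 2568 CPM in HPC (median 0 CPM). *Adgre1*, which encodes the F4/80 antigen, ran from 0.142 to 1453 CPM in Mac (median 120 CPM) and from 0 to 1202 CPM in HPC (median 0 CPM). The ranges of the groups overlapped for each of the 4 genes, but when every Mac cell was set against every HPC, the Mac cell was higher in 89.2% of pairs for *Csf1r*, 91.9% for *Cx3cr1*, 94.3% for *C1qb* and 88.2% for *Adgre1*. The log2 ratios of the means (mean CPM + 1, Mac over HPC) were 2.92, 3.06, 3.48 and 2.43 in that order, and 2.62, 2.87, 3.32 and 2.96 without the low-complexity libraries. Over all Mac cells 80608 counts of *C1qb* were read (95% exact Poisson interval 80053 to 81166).

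**Figure D2:**
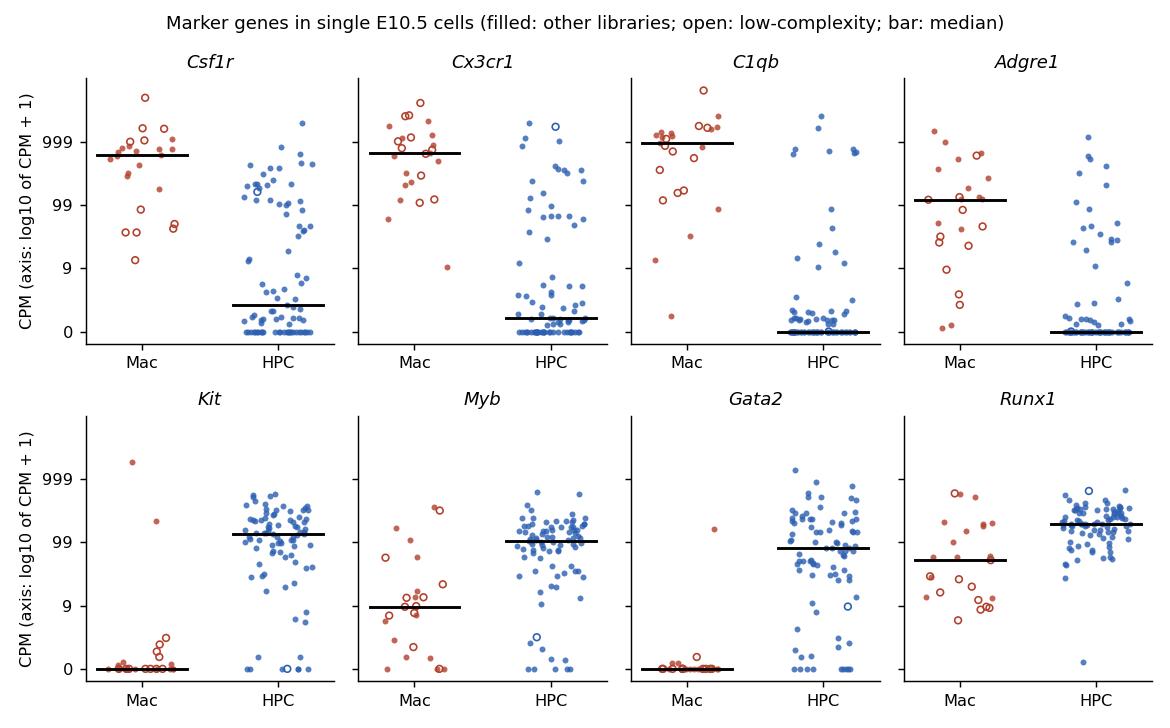
CPM of the 4 macrophage markers (top) and 4 progenitor genes (bottom) in single E10.5 cells, on an axis of log10 of CPM + 1. Each point is 1 cell, open points are low-complexity libraries and bars are medians. Medians of *Csf1r*, *Cx3cr1*, *C1qb* and *Adgre1* were 621, 672, 960 and 120 CPM in Mac and at most 1.64 CPM in HPC, whereas *Kit* and *Gata2* had medians of 0 CPM in Mac.

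All 25 Mac cells held at least 1 count of each marker, but a single count says little in this lane. Of the 25 captured EryP libraries read beside them, 11 held a count of *Csf1r*, 13 of *Cx3cr1*, 13 of *C1qb* and 2 of *Adgre1*, although erythroid cells should lack these genes, and none held 10 counts (0 of 25, which allows a share of up to 12% if 3 libraries are taken as the limit that a count of 0 leaves, as for each such limit here). Their median depth was 787013 counts, below that of Mac. With 10 counts as the limit, *Csf1r* was found in 100% of Mac cells and 41.4% of HPCs, *Cx3cr1* in 100% and 29.9%, *C1qb* in 96% and 17.2%, and *Adgre1* in 84% and 20.7%. None of the 61 endothelial cells of the same stage held a count of any of the 4 (which allows up to 4.92%).

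The progenitor genes gave a mixed picture. *Gata2* had a count in 4 of 25 Mac cells (16%, exact 95% interval 4.54% to 36.1%) and 78 of 87 HPCs (89.7%, 81.3% to 95.2%), with medians of 0 and 78.9 CPM. *Kit*, the receptor for stem cell factor, had medians of 0 CPM in Mac and 135.4 CPM in HPC, but its mean was 84.0 CPM in Mac against 162 CPM in HPC, because cell 13 of Mac alone held 1877 CPM. Without that cell the log2 ratio of *Kit* moved from −0.94 to −3.99, and without the low-complexity libraries, but with cell 13, it was −0.13. *Myb* had medians of 8.58 and 104.7 CPM and a log2 ratio of −1.33. *Runx1* was found in every cell of both groups, with medians of 51.2 CPM in Mac and 195 CPM in HPC and a log2 ratio of −0.82. Of the genes whose proteins set the gates, *Itga2b* (CD41) had a count in 2 Mac cells and 64 HPCs, *Ptprc* (CD45) was found in all 25 Mac cells and 83 HPCs, and *Cdh5*, at 953 CPM on average in endothelial cells, averaged 1.88 CPM in Mac and 13.0 CPM in HPC.

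For the comparison across genes, 4667 genes were considered that had a mean of at least 50 CPM and a count in at least 50% of cells in Mac or in HPC. Of these, 555 had a mean at least 4-fold higher in Mac (11.9%) and 200 had a mean at least 4-fold higher in HPC (4.29%). The number in Mac rested on the libraries that stood apart. In 387 of the 555 genes a single Mac cell held over 50% of the summed CPM of the group, and in 385 of those it was a low-complexity library. None of the 200 genes higher in HPC rested on 1 progenitor in this way. Without the low-complexity libraries of both groups, 4585 genes were considered, of which 174 were 4-fold higher in Mac (3.79%) and 2.75% were higher in HPC. The 99 genes higher in Mac under both counts were 17.8% of the 555 and 56.9% of the 174, and the 96 genes higher in HPC under both were 48% of the 200 and 76.2% of those higher in HPC in the second count. By the median over cells in place of the mean, 22.9% of the 555 and 97% of the 200 were also past 4-fold. Of all genes considered, 3.73% were past 4-fold in Mac by the median and 38.4% in HPC. The median log2 ratio over them was −1.62 on that measure, so that the 2 shares cannot be compared as signs of firmness. The cell scaling mattered as well: the median log2 ratio over the genes considered was −0.0039 with the authors' CPM and −0.22 with CPM of each cell's own total, and on the second scale 347 genes were higher in Mac and 250 in HPC, so that Mac took 58.1% of the calls in place of 73.5%.

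**Figure D3:**
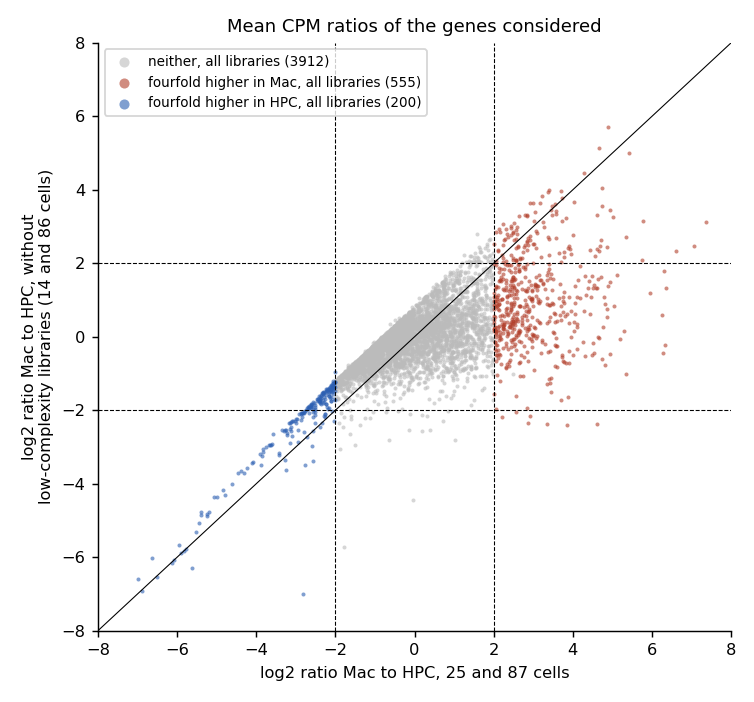
Log2 ratio of mean CPM + 1 (Mac over HPC) for the 4667 genes considered, from all cells (x axis) and without the low-complexity libraries (y axis). Most of the 555 genes past 4-fold in Mac fall under the dashed line at 2 on the y axis, where 99 of them remain, while of the 200 genes past 4-fold in HPC 96 stay past it.

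The 15 genes with the largest ratios in Mac showed how far 1 cell could carry a mean. *Cttnbp2nl* ran from 0 to 22566 CPM in Mac with a median of 0.979 CPM, and cell 37 held nearly all of the summed CPM. Its log2 ratio was 7.37 with that cell and 2.41 without it. *Ugt1a7c*, *Kifc3*, *Nuak2*, *Stom*, *Ndst2*, *Gcat*, *Ccl7*, *Msh3*, *Lats2*, *Plekhg5*, *Usp12* and *Ppfia4* likewise had Mac medians between 0.261 and 5.54 CPM, with 78.3% to 99.5% of the summed CPM in 1 cell. Of the 15, *Tlr7*, which senses single-stranded RNA in endosomes, had a higher median of 20.4 CPM in Mac against 0 CPM in HPC, was found in 24 of 25 Mac cells and 21 of 87 HPCs, and kept a log2 ratio of 5.00 without the low-complexity libraries (5.41 with all cells, 4.33 without cell 39, which held 54.5%). The genes described below as higher in Mac are therefore those past 4-fold both with and without these libraries, unless another value is given.

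All 3 genes of C1q, in the complement list, were higher in Mac. Of 10 members considered, 6 were 4-fold higher in Mac with all cells and 5 without the low-complexity libraries, none was higher in HPC, and the median log2 ratio was 2.49, or 2.08 without those libraries, against −0.0039 and −0.054 over all genes considered. Beside this and the list counts below, 11.9% of all genes considered were higher in Mac and 4.29% in HPC (3.79% and 2.75% without those libraries). *C1qa*, *C1qc* and *Cfp*, at 5.66, 9.63 and 17.7 CPM on average in HPC, were considered through their Mac level alone. Members considered through 1 group alone pull a list median towards that group, here and below. List medians and that over all genes are thus not a like comparison. *C1qa* ran from 0 to 412 CPM in Mac (median 34.3 CPM, 23 of 25 cells) and had a median of 0 CPM in HPC (11 of 87 cells), with log2 ratios of 3.48 and 3.56 without the low-complexity libraries. *C1qc* ran from 0 to 538 CPM in Mac (median 56.7 CPM) and had a count in 17 HPCs, with log2 ratios of 3.46 and 3.44. *Cfp*, which encodes properdin, the stabiliser of the alternative pathway convertase, had a median of 103.7 CPM in Mac and 0 CPM in HPC. Its ratio of 4.94 fell to 3.02 without cell 37, which held 74.8% of the summed CPM. *C3ar1*, the receptor for the C3a fragment, was past 4-fold in the second count alone (1.91 and 2.22).

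The surface receptors of macrophages followed, with 13 of 19 members 4-fold higher in Mac and 9 of 18 without the low-complexity libraries, and a median log2 ratio of 2.46 and 1.90. Of all genes considered, 11.9% and 3.79% were higher in Mac in these 2 counts. *Mrc1*, the mannose receptor, ran from 6.91 to 17132 CPM in Mac with a median of 2650 CPM and from 0 to 5299 CPM in HPC with a median of 0 CPM. At least 100 CPM of *Mrc1* was seen in 21 of 25 Mac cells and 10 of 87 HPCs, and the log2 ratio was 3.72 and 3.15. The purine receptor gene *P2ry6* had a median of 34.2 CPM in Mac and 0 CPM in HPC (4.69 and 2.48, and 2.83 without cell 32). *Sirpa*, which binds CD47 and restrains uptake of healthy cells, was found in all Mac cells and in 77 HPCs, with medians of 360 and 34.3 CPM (3.69 and 2.04, and 2.13 without cell 29). *Cd86* and *Cd14* did not hold: cell 32 held 94.3% of the summed *Cd86* and cell 14 held nearly all of the summed *Cd14*, and the ratio of *Cd14* moved from 4.26 to −0.56 without cell 14.

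Genes for uptake and for fixed tissue macrophages were among the most different. In the list of scavenger and efferocytosis receptors 6 of 12 members considered were higher in Mac (7 of 13 without the low-complexity libraries), where 11.9% and 3.79% of all genes considered were, with a median log2 ratio of 2.60 and 2.08. Over the same 12 members the second median was 1.49 relative to all genes considered, and the median ratio of the medians over all cells was 0.40. In the list of tissue macrophage genes 8 of 10 members considered were higher in Mac (6 of 8), beside the same shares of all genes considered, with a median of 3.08 and 2.83. That list held 24 genes, of which 14 were in the filtered table, so that members low in both groups did not enter the share. *Cd163*, *Vsig4*, *Clec4f* and *Cbr2*, outside the filtered table, had a count in 0 Mac cells. *Dab2*, an endocytic adaptor, ran from 1.96 to 14093 CPM in Mac (median 1969 CPM) and had a median of 1.68 CPM in HPC, with ratios of 3.38 and 2.67. *Stab1*, a scavenger receptor, ran from 0.244 to 1964 CPM in Mac (median 60.7 CPM) and had a median of 0 CPM in HPC (3.58 and 3.42). *Gas6*, the ligand that bridges dying cells to MERTK, was at 4.60 and 3.31, and at 2.79 without cell 3, although in the 14 other Mac libraries its median was only 0.625 CPM. *Cd36*, a receptor for oxidised lipids, was at 4.74 and 3.55, although in the 14 other Mac libraries its median was only 1.505 CPM. *Ednrb*, the endothelin receptor B, had medians of 134.1 and 0.315 CPM (2.87 and 2.68).

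Several of these genes were also abundant in other sorted cells. In endothelial cells of the same stage *Mrc1* averaged 2035 CPM, *Dab2* 1103 CPM, *Stab1* 829 CPM, *Cd36* 987 CPM and *Maf* 2482 CPM. *Csf1r*, *Cx3cr1*, *C1qb*, *Adgre1*, *C1qa* and *C1qc* averaged 0 CPM there. Endothelial markers were low in Mac all the same. None of the 20 genes of the endothelial list was considered, 6 of the 20 were at 0 in every Mac cell, and the summed level of the list ran from 0 to 660 CPM in Mac (median 21.5 CPM) and from 0 to 3987 CPM in HPC (median 213 CPM). *Cdh5* had a count in 2 Mac cells, *Kdr* in 1 and *Emcn* in none.

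Among the transcription factors, *Maf* was higher in Mac under both counts. It ran from 229 to 9154 CPM in Mac, so that all 25 cells lay above 100 CPM, and had a median of 1579 CPM there and of 0.579 CPM in HPC, of which 15 reached 100 CPM. The log2 ratio was 3.28 and 2.97. *Irf8*, a factor of the monocyte and macrophage branch, was at 4.17 with all cells, 2.64 without cell 32, which held 66.9% of it, and 1.92 without the low-complexity libraries. *Spi1*, which encodes PU.1, was found in all Mac cells and 75 HPCs, with medians of 25.3 and 6.97 CPM, and was below the limit of 50 CPM in both groups. Over the 9 myeloid factors considered the median log2 ratio was 0.74 and 0.83.

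The promoters of some of these genes are shown because the C1q genes moved together and *Mrc1* with them, and because the granule genes *Mpo*, *Prtn3* and *Cpa3* moved together the other way. The 250 bases before the RefSeq start of each gene (GRCm38.p6) are written 5′ to 3′ on the strand of the gene. Capitals mark GAGGAA, a core often bound by PU.1 and other ETS factors, or its reverse complement TTCCTC.
*C1qb* (chr4:136886201-136886450, minus strand): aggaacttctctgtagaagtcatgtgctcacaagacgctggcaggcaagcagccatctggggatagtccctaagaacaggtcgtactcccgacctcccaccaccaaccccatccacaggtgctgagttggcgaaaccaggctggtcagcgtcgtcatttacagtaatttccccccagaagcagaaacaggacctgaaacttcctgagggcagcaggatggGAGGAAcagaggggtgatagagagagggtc
*C1qc* (chr4:136892915-136893164, minus strand): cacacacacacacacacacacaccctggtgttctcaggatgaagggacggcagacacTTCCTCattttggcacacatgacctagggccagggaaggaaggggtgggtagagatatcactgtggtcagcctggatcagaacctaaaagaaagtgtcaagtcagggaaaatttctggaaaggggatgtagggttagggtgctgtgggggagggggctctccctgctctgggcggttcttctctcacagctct
*Mrc1* (chr2:14229164-14229413, plus strand): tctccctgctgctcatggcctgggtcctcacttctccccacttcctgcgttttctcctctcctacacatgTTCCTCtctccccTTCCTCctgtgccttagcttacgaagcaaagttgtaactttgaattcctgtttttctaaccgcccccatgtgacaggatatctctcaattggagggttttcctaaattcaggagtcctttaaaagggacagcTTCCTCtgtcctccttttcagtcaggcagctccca
*Mpo* (chr11:87793534-87793783, plus strand): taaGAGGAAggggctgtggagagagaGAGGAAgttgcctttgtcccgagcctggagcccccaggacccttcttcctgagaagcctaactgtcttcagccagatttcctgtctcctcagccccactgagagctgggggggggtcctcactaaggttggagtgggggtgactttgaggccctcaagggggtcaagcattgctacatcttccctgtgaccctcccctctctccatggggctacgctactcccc
*Prtn3* (chr10:79879417-79879666, plus strand): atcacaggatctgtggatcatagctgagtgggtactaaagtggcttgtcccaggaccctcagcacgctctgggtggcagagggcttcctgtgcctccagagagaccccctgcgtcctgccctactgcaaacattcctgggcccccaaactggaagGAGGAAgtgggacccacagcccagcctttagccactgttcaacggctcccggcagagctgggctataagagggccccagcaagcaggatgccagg
*Cpa3* (chr3:20242182-20242431, minus strand): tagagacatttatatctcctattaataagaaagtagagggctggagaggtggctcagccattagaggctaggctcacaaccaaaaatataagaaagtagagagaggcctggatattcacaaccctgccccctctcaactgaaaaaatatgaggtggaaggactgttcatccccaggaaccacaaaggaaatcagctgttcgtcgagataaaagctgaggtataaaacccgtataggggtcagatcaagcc
The motif stood 1 time before *C1qb* and *C1qc*, 3 times before *Mrc1*, 2 times before *Mpo* and 1 time before *Prtn3*. It stood 0 times before *Cpa3*, and likewise before *Cx3cr1*, *Gata2* and *Gfi1b*, which are not printed. Among all 32851 RefSeq promoters of this length 23.3% held it on either strand, among those of the genes considered 23.8%, among those of the 99 genes higher in Mac 32.7% (78 genes matched), and among those of the 96 genes higher in HPC 33.3% (68 genes matched). The GATA motif AGATAA, searched on both strands, stood in 9.99% of all promoters, in 5.31% of those of the genes considered, in 5.61% of those higher in Mac and in 12.6% of those higher in HPC. A match of letters is not evidence of binding.

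Genes linked to microglia were among those higher in Mac. Of 9 members considered, 6 were past 4-fold in Mac under either count (of all genes considered 11.9% and 3.79%), 5 of them under both, and the median log2 ratio was 2.44 and 2.62. Beside *Csf1r* and *Cx3cr1* these were *P2ry12*, a receptor for ADP, with a median of 19.7 CPM in Mac and 0 CPM in HPC (3.83 and 3.23, and 2.77 without cell 3), *Fcrls* (medians 88.7 and 0 CPM, 2.44 and 3.02), and *P2ry6*. *Tmem119*, found in 1 Mac cell, and *Sall1*, at 0 in every cell of both groups, which mark mature microglia, were not seen beyond this. *Aif1*, which encodes the calcium-binding protein IBA1, ran from 0.142 to 774 CPM in Mac (median 76.3 CPM) and had a median of 0 CPM in HPC, with ratios of 3.41 and 3.99. Genes of monocytes were few: of 4 members considered *F13a1* (2.55, but 1.76 without the low-complexity libraries) and *Itgal* were past 4-fold in Mac with all cells, neither was in the second count, *Hp* was higher in HPC under both, and *Ccr2* had a count in 5 Mac cells and 22 HPCs.

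Other groups had few members past the limit. Of 31 lysosome genes, 5 were 4-fold higher in Mac with all cells, where 11.9% of all genes considered were, and 4 without the low-complexity libraries, where 3.79% were. Here *Psap*, which encodes a precursor of sphingolipid activators, was the one member in both (2.35 and 2.71). *Ctss*, *Cd68* and *Grn* were past the limit in the second count alone, at 2.30, 2.62 and 2.03. In lipid and iron handling, the iron exporter gene *Slc40a1* (medians 136.98 and 0 CPM, 2.58 and 2.99, and 1.98 without cell 7) and the cholesterol exporter gene *Abca1* (3.01 and 2.52, cell 10 holding 37.1%) were higher in Mac, whereas *Abcg1*, a related exporter, was higher in HPC (−3.84 and −3.12, medians 0 and 68.1 CPM). Among secreted factors *Ccl3* was higher in Mac (medians 114.2 and 0 CPM, 2.11 and 2.36). *Pf4* was at 2.28 and 1.99, with a median of 2.40 CPM in Mac against a mean of 4902 CPM in megakaryocytes of the stage. Of 13 integrin and adhesion genes, *Itgb5* (4.28 and 4.45) and *Itga9* (2.91 and 3.64) were higher in Mac under both counts.

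**Figure D4:**
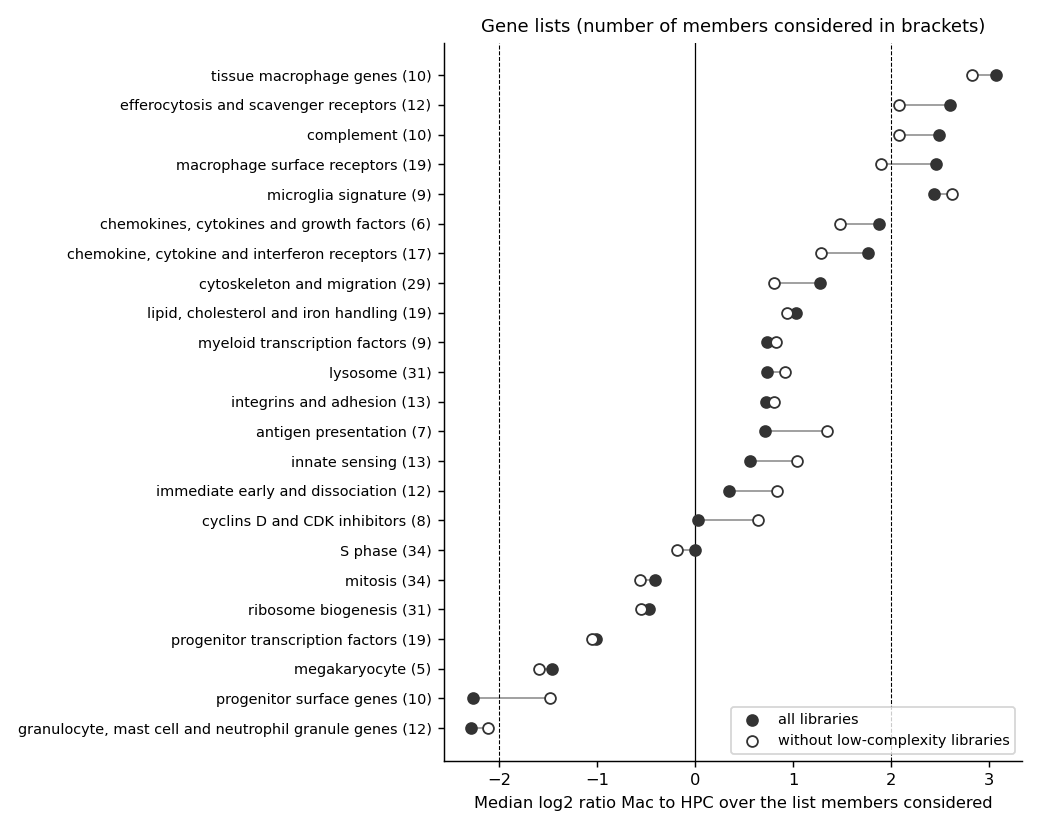
Median log2 ratio (Mac over HPC) of each gene list with 5 or more members considered, from all libraries (filled) and without the low-complexity libraries (open). Lists of macrophage genes lie near or above 2, the granule genes lie below −2 under both, and the S phase, mitosis and ribosome lists lie between −0.57 and 0. Open points rest on the members considered in that count. Over the members of the filled points, the granule list without those libraries was at −1.53 and the scavenger list at 1.49, relative to all genes considered.

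In the other direction, granule genes of granulocytes and mast cells were higher in HPC. Of 12 members considered, 6 were 4-fold higher in HPC with all cells and the same 6 of 11 without the low-complexity libraries (of all genes considered 4.29% and 2.75%), none was higher in Mac, and the median log2 ratio was −2.29 and −2.11. Over the same 12 members the second median was −1.53 relative to all genes considered. *Mpo*, myeloperoxidase, ran from 1.44 to 8420 CPM in HPC with a median of 483 CPM, and was found in all 87 cells. In Mac it had a count in 8 of 25 cells, a median of 0 CPM and a highest value of 198 CPM in cell 35. The ratio was −6.64 and −6.02. *Prtn3*, proteinase 3, ran from 0 to 875 CPM in HPC (median 92.0 CPM, 85 cells) and had a count in 4 Mac cells (−5.41 and −4.77). *Cpa3*, the mast cell carboxypeptidase, had a count in 54 HPCs (62.1%) and in no Mac cell (0 of 25, which allows up to 12%). Against a floor of 3 counts over all Mac cells, its share of the summed counts was 2884-fold higher in HPC. That figure covers counting of reads only and is no lower limit, since up to 12% of Mac cells could hold the gene. *Hdc*, which makes histamine, *Hp*, haptoglobin, and *Serpinb1a*, an inhibitor of neutrophil proteases, were at −4.78, −3.30 and −2.91, and at −4.32, −2.57 and −2.11 without the low-complexity libraries. *Hp*, *Cpa3* and *Hdc* had HPC medians below 1 CPM, so that their means came from a part of the cells.

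Of 19 progenitor transcription factors considered, 5 were higher in HPC with all cells and 6 without the low-complexity libraries (of all genes considered 4.29% and 2.75%), none was higher in Mac, and the median was −1.01 and −1.06. *Gata1*, the erythroid and megakaryocytic factor, ran from 0 to 1135 CPM in HPC (median 2.16 CPM) and totalled 2 counts over all Mac cells. *Gata2* was at −4.38, *Ikzf2* at −4.30, *Gfi1b* at −3.06 and *Nfe2* at −5.96, and all 4 stayed past the limit without the low-complexity libraries (−3.65, −3.70, −2.28 and −5.68). The level of *Gata2* in Mac was that of 1 cell: cell 13 held 99.4% of it. *Nfe2*, a factor of platelet formation, ran from 0 to 396 CPM in HPC (median 68.4 CPM) and reached at most 8.63 CPM in Mac.

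Of 10 surface genes of progenitors 6 were higher in HPC, with a median of −2.27 (5 of 12 and −1.48 without the low-complexity libraries). Of all genes considered, 4.29% and 2.75% were higher in HPC in these 2 counts. *Adgrg1* (GPR56) had medians of 467 CPM in HPC and 0 CPM in Mac (−3.34 and −2.53), and *Angpt1*, the ligand of TEK, had medians of 101.8 and 0 CPM (−3.09 and −2.30). *Cd34* had medians of 346 and 0.430 CPM and was at −2.23, but at −1.41 without the low-complexity libraries. In erythroid genes *Car2*, carbonic anhydrase 2, stood beside *Gata1* (medians 277 and 0.644 CPM, −3.14 and −2.35). The 15 genes with the largest ratios in HPC also held *Tuba4a* (−6.98), *Slc18a2* (−5.62), *Fstl1* (−5.41), *Alg11* (−5.07), *Tspan6* (−4.84), *Mief1* (−3.91), *Inpp5b* (−3.83), *Spns2* (−3.75) and *Adgrg3* (−3.68). *Tuba4a*, a tubulin gene, ran from 0 to 617 CPM in HPC (median 215 CPM, 80 of 87 cells) and had a count in 1 Mac cell.

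For genes of the cell cycle the counts stand beside 11.9% of all genes considered higher in Mac and 4.29% higher in HPC. Of 34 S phase genes considered, 2 were 4-fold higher in Mac and 1 in HPC, and the median log2 ratio was −0.00012 and −0.19 without the low-complexity libraries, where no member passed the limit. Of 34 mitosis genes, 3 were higher in Mac and 2 in HPC (median −0.41 and −0.57), again with none past the limit in the second count. *Cdc45*, a member of the replicative helicase, stood at 2.58 with all cells and at −1.61 without the low-complexity libraries, cell 32 holding 96.4%. *Mki67* stood at 2.54 and 0.42, with medians of 271 CPM in Mac and 252 CPM in HPC. *Top2a* had medians of 292 and 941 CPM (−0.98 and −0.79). Of 31 ribosome biogenesis genes, 2 were higher in Mac and 1 in HPC with all cells, and *Polr1b*, a subunit of RNA polymerase I, was the one past the limit under both (−3.00 and −2.35).

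Some cells of each group, called border cells here, carried marker genes of the other group. At least 100 CPM of 3 or 4 macrophage markers was seen in 17 of 25 Mac cells (68%, exact 95% interval 46.5% to 85.1%) and in 10 of 87 HPCs (11.5%, 5.65% to 20.1%). In the 46 HPCs of E9.5, sorted under the same name and read on the same flow cell, no cell did so (0 of 46, which allows up to 6.52%), although 5 had 2 markers at that level. Of the 8 E10.5 HPCs with 100 CPM of *C1qb*, 4 also had 100 CPM of *Kit*, 5 had 100 CPM of *Mpo* and none had 100 CPM of *Gata1*. The 3 HPCs with all 4 markers at 100 CPM (numbers 28, 34 and 77) had 0 CPM of *Kit* and *Gata2*. Their *Mpo* was at most 5.02 CPM and their *Myb* at most 0.457 CPM. Why these HPCs carried macrophage genes was not tested. Within HPC, 72 cells had 100 CPM of *Mpo* (82.8%, 73.2% to 90.0%) and 28 of *Gata1* (32.2%, 22.6% to 43.1%), and 23 had both. All 14 HPCs with 100 CPM of *Cx3cr1* had 100 CPM of *Csf1r*. On the other side, 2 Mac cells held at least 100 CPM of *Kit*. Cell 13 had 1877 CPM of *Kit*, 160 CPM of *Gata2* and 31.5 CPM of *C1qb*, beside 716 CPM of *Csf1r*. Cell 35 had 216 CPM of *Kit*, 198 CPM of *Mpo* and 583 CPM of *Runx1*, with 0.733 CPM of *C1qb* and 178 CPM of *Csf1r*. Neither was a low-complexity library. Without these 2 cells and the 10 HPCs, 659 genes were 4-fold higher in Mac and 301 in HPC, of which 551 and 190 were among the 555 and 200. These cells were picked by their levels of the 4 markers and of *Kit*, so that a wider gap between the groups followed from the choice. Mac cells with over 100 CPM of *Myb* but 0 CPM of *Kit* were not counted as border cells. Among them were cells 20, 24 and 30, at 317, 168 and 360 CPM of *Myb*.

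HPCs of E9.5 gave a further set of levels for these genes. *C1qb* averaged 13.9 CPM in E9.5 HPC and 99.9 CPM in E10.5 HPC, *Mrc1* 10.1 and 265 CPM, *Dab2* 20.5 and 314 CPM, *Csf1r* 83.1 and 99.6 CPM, and *Cx3cr1* 63.3 and 114.3 CPM, against Mac means of 1124, 3493, 3293, 763 and 958 CPM. The E10.5 HPC means came from a part of the cells. There the medians were 0 CPM for *C1qb* and *Mrc1* and 1.68 CPM for *Dab2*, and 8, 10 and 15 of the 87 cells reached 100 CPM. *Maf* was at 686 CPM in E9.5 HPC and 188 CPM in E10.5 HPC against 1832 CPM in Mac. *Mpo* averaged 295 CPM at E9.5 and 1202 CPM at E10.5, and *Prtn3* 143.6 and 165 CPM.

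Globin transcripts were rare in both groups. Their share of the counts per cell ran from 0.000381% to 0.00931% in Mac (median 0.00313%, all 25 cells) and from 0 to 0.0200% in HPC (median 0.000186%, 51 of 87 cells). The make-up of that signal differed. Of 2259 globin counts in Mac, *Hbb-y* gave 42.3%, *Hba-x* 23.3%, *Hbb-bh1* 22.0% and *Hbb-bt* 2.04%, and all of the first 3, the embryonic globins, were found in every Mac cell. In the 25 captured EryP libraries of the same lane, in which globins made up 0.434% to 47.0% of the counts, *Hbb-y* gave 47.5%, *Hba-x* 21.6%, *Hbb-bh1* 25.6% and *Hbb-bt* 0.645%. In HPC *Hbb-bt* gave 52.4% of 2957 counts, *Hbb-bh1* 28.8%, *Hbb-y* 7.64% and *Hba-x* 1.15%. The proportions in Mac were near those of the erythroid cells of the lane and unlike those of HPC. In the pooled globin counts of endothelial libraries, read in lane 6, *Hbb-y* gave 44.9%, *Hba-x* 40.9%, *Hbb-bh1* 10.6% and *Hbb-bt* 0. There each globin had a median of 0 CPM and *Hba-x* a highest value of 2185 CPM, so that a part of the libraries gave these counts. The erythroid factor *Klf1* was at 0 in every Mac cell and had a count in 23 HPCs, and *Epor* had a count in 1 Mac cell and 22 HPCs. Globins were so rare in Mac that these genes cannot show where the globin signal came from. The part of the erythroid cells of the lane in this signal was not tested.

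**Figure D5:**
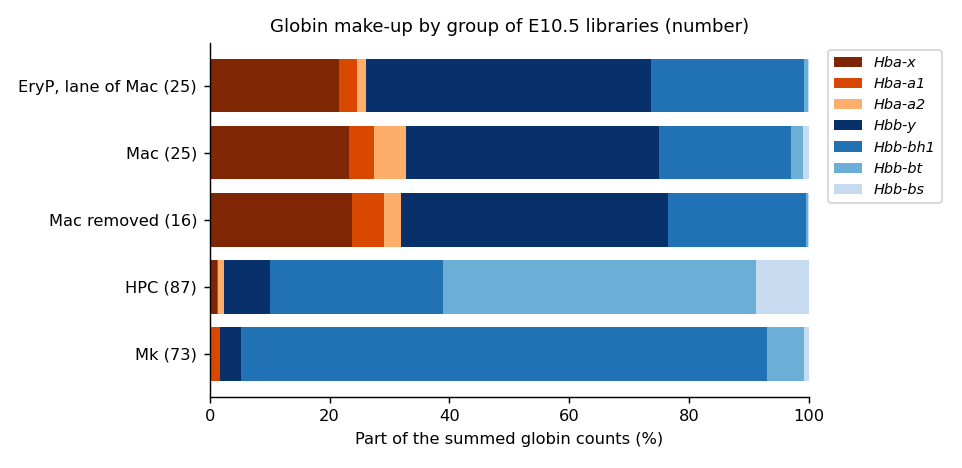
Part of the summed globin counts (x axis, %) given by each globin gene in 5 groups of E10.5 libraries, with the number of libraries in brackets. *Hba-x*, *Hbb-y* and *Hbb-bh1* gave 23.3%, 42.3% and 22.0% in Mac, close to 21.6%, 47.5% and 25.6% in the EryP libraries of the same lane, whereas *Hbb-bt* gave 52.4% in HPC.

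Markers of other cells were low. None of 15 mesenchymal genes was considered, 11 were at 0 in every Mac cell, and their summed level reached at most 92.9 CPM in Mac and 207 CPM in HPC. In the megakaryocyte list 2 of 5 genes considered, *Gfi1b* among them, were higher in HPC and *Pf4* was higher in Mac with all cells, and 8 of 21 genes were at 0 in every Mac cell. Of 27 immediate early and dissociation genes 12 were considered, with a median log2 ratio of 0.34 and 0.83 without the low-complexity libraries. *Zfp36* (2.03) and *Dusp1* (2.79) were past 4-fold in Mac with all cells, and neither was without the low-complexity libraries (0.83 and 1.01). The part of handling in the differences above was not tested.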

How the data were processed

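Cells were sorted, captured on the Fluidigm C1, made into Nextera XT libraries and read as paired ends. The read count tables were deposited by the authors, who aligned with Rsubread (Subread) to the Ensembl GRCm38 assembly and counted with featureCounts; no versions are given in the labels. The deposited CPM, a signal that need not sum to the same total in each cell, are the filtered counts after scaling with scran size factors (cells and genes filtered in scater). Reads carry no molecular identifiers, so intervals cover counting error only. The E10.5 Mac and HPC columns were used as deposited. Total counts ran from 483830 to 5943204 per cell.

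Genes were considered at a mean of 50 CPM and a count in 50% of cells in either group, and taken as higher in a group at a log2 ratio of mean CPM + 1 (pseudocount 1) of 2 or more in that direction, with both limits held there. No test was made, because a group is 1 sample. Shares above 0 have exact (Clopper-Pearson) 95% intervals, and for a share of 0 the limit is 3 over the number of cells. Named are the 4 markers, the 15 genes with the largest ratio in each direction at a mean of 100 CPM, up to 6 members past 4-fold of each of 29 lists, genes of the gates, globins, and list members at or near 0 that bear on the label; other genes, and those past the limit only without low-complexity libraries, were chosen after their values were seen. Members and lists were chosen with earlier results of these data known. The alternatives without low-complexity libraries, with medians, without border cells and with each cell left out were also chosen after seeing the data. Unfiltered IDs were matched to symbols in a table of gene names (47224 of 47643). The rule was also run on simulated cells drawn from the summed HPC profile and scaled by each cell's total. These held no low-complexity libraries, so that run cannot show how the rule behaves where 1 cell holds most of a mean. Software was matplotlib 3.10.9, scipy 1.17.1, pandas 2.3.3 and numpy 2.4.6 under Python 3.11.15. Some genes that the rule names are not reported here. Other populations entered only as named.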

Additional observations from a re-analysis of the deposited data

Results flagged for a closer look

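Data outside the filtered table held some further macrophage signal. In the 16 Mac libraries that the authors' filter removed, *Cx3cr1* reached 100 CPM in 10, *C1qb* in 9 and *Csf1r* in 4, but *Adgre1* in 0 (10 counts in 3 libraries, highest value 18.1 CPM), against 0 of 25 EryP libraries of the same lane for each of the 4 genes. Their median depth was 1107514 counts and the globin share ran from 0.000391% to 0.0187%. The lectin receptor gene *Clec4a3* is outside the filtered table and had a count in 15 of 25 Mac cells (mean 3.57 CPM of all counts) and in 2 of 87 HPCs (1.18 CPM). *Lyz1*, also outside it, had a count in 19 Mac cells and 50 HPCs (2.82 and 1.26 CPM); reads of this gene can be shared with its near-identical neighbour *Lyz2*.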

How the results depend on the processing

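No paired analysis was possible because cell numbers only name cells and no test was made. The share of genes considered that was 4-fold higher in Mac, 11.9% (555 genes), became 7.23% (347) with CPM of each cell's total, 6.21% (291) with cells thinned to 480000 counts, 3.19% with the mean of log2 CPM, 3.79% (174) without low-complexity libraries, 3.73% (174) with the median, 6.65% (1062) with no minimum and 4.52% (211) at 8-fold. With all captured cells it was 9.63% (451), but only 220 of these genes were among the 555. Of the genes higher in HPC with all captured cells, 171 were among the 200. The share higher in HPC, 4.29% (200 genes), became 2.46% with a pseudocount of 10, 31.2% (1455) with the mean of log2 CPM, 10.48% (491) with all captured cells, 2.75% without low-complexity libraries, 38.4% (1790) with the median, 6.397% (301) without border cells (Mac cells 13 and 35 and the 10 HPCs with 3 or 4 markers), 8.35% (1333) with no minimum, 3.07% (88) at a minimum of 100 CPM and 1.31% (61) at 8-fold. Leaving out each cell gave 11.3% to 12.6% in Mac and 4.03% to 5.42% in HPC. Mac took 73.5% of the calls, 53.0% after thinning, 47.9% with all captured cells, 9.29% with the mean of log2 and 8.86% with the median.

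The list and gene values that follow are log2 ratios minus the median over the genes considered, over the list members considered with all cells. The list medians given above without low-complexity libraries rest on the members considered in that count and so differ from these. With the mean of log2 CPM the list medians became 4.28 (macrophage surface), 5.61 (complement), 1.94 (scavenger), 4.12 (chemokines), 1.502 (innate sensing), 2.22 (myeloid factors), −3.29 (progenitor surface), −1.02 (granule), 1.58 (antigen presentation), 4.86 (microglia), 5.20 (tissue macrophage), −2.58 (megakaryocyte) and 1.22 (immediate early). Without low-complexity libraries they became 1.85 (macrophage surface), 1.49 (scavenger), 1.18 (innate sensing), 1.38 (myeloid factors), −1.53 (granule), 0.74 (cyclins D and CDK inhibitors), 1.45 (antigen presentation), −0.81 (megakaryocyte) and 0.97 (immediate early). Without border cells they became 3.34 (macrophage surface), 5.72 (complement), 3.19 (scavenger), 1.80 (lipid and iron), 3.01 (chemokines), 1.52 (myeloid factors), −3.54 (progenitor surface), 3.84 (microglia), 4.58 (tissue macrophage) and −4.12 (megakaryocyte). Border cells were picked by the macrophage markers and *Kit*, so that wider gaps in lists holding these genes followed from the choice. With all captured cells the list medians became −1.65 (progenitor surface) and −0.80 (granule), and with a pseudocount of 10 the scavenger list 2.01.

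Relative to that median, single genes changed sign. Without low-complexity libraries these were *Stom* (−0.13), *Ndst2* (−0.35), *Lats2* (−0.93), *Tpp1* (−0.70), *Cd14* (−0.045), *Cdc45* (−1.52), *Foxm1* (−0.59), *Mybbp1a* (−0.16) and *Pes1* (−0.28). With the median they were *Msh3* (−0.26), *Hp* (1.00), *Cpa3* (0.74), *Hdc* (0.84), *Cdc45* (−1.32), *Rfc3* (−0.30), *Nusap1* (−1.27), *Foxm1* (−0.41), and *Cdh5*, *Hbb-bt* and *Hbb-bs* (1.62 each, both medians being 0 CPM). With the mean of log2 they were *Cdc45* (−1.18), *Nusap1* (−0.15), *Cdh5* (0.33), *Hbb-bt* (0.17) and *Hbb-bs* (0.95), and with all captured cells *Cd9* (1.23). For *Hp*, *Cpa3*, *Hdc*, *Cdh5*, *Hbb-bt* and *Hbb-bs* the sign changed through the subtraction alone: before it, the ratios were −0.62, −0.88 and −0.78 for the first 3 with the median, and −0.97, −1.13 and −0.35 for the last 3 with the mean of log2. At 10 counts the share of HPCs was 41.4% for *Csf1r*, 29.9% for *Cx3cr1*, 17.2% for *C1qb*, 20.7% for *Adgre1* and 78.2% for *Gata2*, and of Mac 84% for *Adgre1*, 8% for *Kit*, 60% for *Myb* and 4% for *Gata2*. After thinning it was 48.3% of HPCs for *Cx3cr1* and 25.3% for *C1qb*, and 12% of Mac for *Kit* and 4% for *Gata2*. The cause was not tested.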
